A study of Saccharomyces cerevisiae with 26 samples.

Results

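Stationary-phase cells of budding yeast were set against log-phase cells of the same kind of batch culture, gene by gene. The members were chosen by sample title alone: 4 of the 26 Affymetrix yeast arrays of the series, 2 titled stationary phase and 2 titled log phase, and every gene of Saccharomyces cerevisiae with a probe set that the platform annotation ties to 1 gene. All cells were a haploid S288C strain, the standard laboratory background, of mating type alpha. Stationary-phase cells were taken 72 h after inoculation, past the start of diauxy, and log-phase cells at 12 h. Both came from anaerobic batch cultures under nitrogen in synthetic defined medium that began with 10 g/L glucose, at 32.5 °C and pH 5.5. A second set for comparison was an anaerobic chemostat (2 arrays), fed medium of 1 g/L glucose as the limiting nutrient at a dilution rate of 0.15 per h and harvested at steady state after 72 h. The other 20 arrays hold cells before and during enclosure in alginate beads. The bead arrays were labelled days 1, 3, 5, 10 and 17, with 100 g/L glucose, at the same temperature and pH. These 20 arrays enter through the shared estimate of spread, the middle level of each probe set, ranks among the 26 arrays and ranges. The choice of probe set and the repeated quantile normalization rest on them too. Growth state and time since inoculation cannot be told apart in the batch cultures. Whether the 2 arrays of a condition stem from different cultures is not in the labels. Each p-value therefore covers only array-to-array spread, which may be technical. That spread is pooled over all 9 groups, bead arrays included.

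Yeast that has used up its glucose first passes through the diauxic shift, in which genes for ethanol, acetate and fatty acids as carbon sources are released from glucose repression. The Snf1 kinase and the activators Cat8, Adr1 and Sip4 are known to carry this release, while Mig1 and its relatives repress the same genes in glucose. Cells then stop dividing, cut ribosome production and enter a resting state in which stored carbohydrate, autophagy and stress proteins are known to matter for survival.

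The deposited value is a ratio whose median over the 26 arrays lay between 0.9905 and 1.047 for every probe set, so a ratio of 1 is the probe set's own middle level in the series. Ratios compare arrays for 1 gene and do not rank genes by abundance. No detection call was used, so the lowest ratios could not be set against background. Of 5449 genes 5446 were tested. The median SD of a gene between the 2 arrays of a group was 0.169 (log2) in stationary phase and 0.150 in log phase. In the bead groups the median SD ran from 0.244 on day 10 to 0.482 on day 1. Across genes, which are not independent replicates, the correlation of the 2 arrays was 0.916 in stationary phase and 0.907 in log phase. The lowest correlation between bead arrays of the same day was -0.491, on day 1. Among the control probe sets, the poly-A spikes (27 probe sets of RNA added to a sample during preparation) had a mean log2 ratio of 1.97 and 2.44 on the stationary-phase arrays and of -0.597 and -0.00135 on the log-phase arrays. The difference of 2.50 was exceeded by the rise of 286 genes, 5.25% of those tested. The 21 ribosomal RNA probe sets stood at 1.22 and 0.501 in stationary phase and at -1.43 and -0.215 in log phase. The 18 probe sets of the hybridization controls, which are added after labelling, stood at 0.327 and 0.245 in stationary phase and at -0.494 and -0.126 in log phase. The 3' minus 5' difference of 8 control genes, a sign of RNA integrity, was -0.141 and 0.140 against -0.248 and -0.466. Each of these moved with the culture state, and their part in the results was not tested.

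Large parts of the genome differed between stationary and log phase. Of 5446 genes 1241 rose (22.8%) and 1181 fell (21.7%), together 2422 (44.5%), at an adjusted p under 0.05 in limma with at least a 2-fold difference. The median log2 fold change of all genes was 0.04. Rises were larger than falls: 78 genes rose by at least 16-fold (1.43%) and 2 fell by as much (0.0367%). For 670 genes (12.3%) both stationary-phase arrays were the highest of all 26, and for 373 genes (6.85%) both were the lowest. Quantile normalization repeated over the tested genes, which forces all arrays to the same width, left 623 calls (11.4%), 330 higher (6.06%) and 293 lower (5.38%). All 623 were among the 2422 in the same direction. These shares over all genes are the background for the list counts below, before and after this normalization. The SD of an array's log2 ratios was 0.998 to 1.03 in stationary phase and 1.06 to 1.14 in log phase, against 0.380 to 0.879 on the bead arrays, and those widths are made equal by that step. Every level is relative to its array, which hides any change that all transcripts share, and in RNA of a whole culture fewer cells that express a gene and less RNA per cell cannot be told apart.

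The 12 highest genes ran from POT1 to CRC1, and 4 of them, PEX18, SHH3, YIG1 and BSC4, were on none of the gene lists. POT1 (YIL160C), the thiolase that ends each round of fatty acid oxidation in the peroxisome, had ratios of 12.6 and 16.3 in stationary phase and of 0.0710 and 0.0582 in log phase. That is a 223-fold difference, or a log2 fold change of 7.80 ± 0.85 (SE, adjusted p = 6.59e-07). The SE, here and below, uses the spread pooled over the 9 groups, with 2 arrays in each group compared. PEX18 (YHR160C), which helps carry proteins such as Pot1 into the peroxisome, stood at 7.15 and 11.9 in stationary phase against 0.0517 and 0.0414 in log phase (7.64 ± 0.72). For both genes the 2 stationary-phase arrays were the highest of the 26. SHH3 (YMR118C), a relative of a succinate dehydrogenase membrane subunit, rose by 7.62 ± 0.56, with ratios of 2.57 and 2.03 in stationary phase against 0.0133 and 0.0102 in log phase. CTA1 (YDR256C), the peroxisomal catalase that removes the hydrogen peroxide of fatty acid oxidation, rose by 7.20 ± 0.85. SPG4 (YMR107W), which resting cells need to survive heat, rose by 7.17 ± 1.20. RGI2 (YIL057C), known to be needed when energy comes from respiration, had the highest ratios of all, 159 and 155 in stationary phase against 0.650 and 2.01 in log phase (7.10 ± 2.13, adjusted p = 0.00868). Its log-phase arrays lay far apart, and the call was lost without log phase replicate 1 and with quantile normalization repeated.

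MLS1 (YNL117W), malate synthase of the glyoxylate cycle, followed at 7.05 ± 0.93. YIG1 (YPL201C), whose protein binds the glycerol phosphatase, rose by 6.85 ± 1.20 and GRE1 (YPL223C), a hydrophilin made under dehydration, by 6.68 ± 0.71. ADY2 (YCR010C), the plasma membrane transporter of acetate, stood at 67.7 and 84.2 in stationary phase against 0.748 and 0.779 in log phase (6.63 ± 1.13). BSC4 (YNL269W) rose by 6.45 ± 0.85. CRC1 (YOR100C), the carnitine carrier of the mitochondrial inner membrane, rose by 6.42 ± 0.97. The 2 groups of arrays did not overlap for any of these 12 genes. They were picked by this same difference, so the lack of overlap is no separate support. The share of all genes without overlap was not counted. Of the 78 genes that rose at least 16-fold, 39 were on none of the 41 gene lists described here.

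The 12 lowest genes stood at -3.25 or below on the log2 scale. DAN1 (YJR150C), a cell wall mannoprotein of anaerobic cells, had ratios of 0.0434 and 0.0310 in stationary phase and of 0.912 and 0.827 in log phase (-4.57 ± 0.29, adjusted p = 1.04e-09). ATF2 (YGR177C), an alcohol acetyltransferase that also acetylates sterols, stood at 0.0787 and 0.211 in stationary phase against 2.35 and 2.80 in log phase (-4.32 ± 0.72). Only these 2 genes fell by 16-fold or more. CYB5 (YNL111C), cytochrome b5 of sterol and lipid synthesis, stood at -3.79 ± 0.62 and ERG26 (YGL001C), a sterol dehydrogenase, at -3.59 ± 0.43. MVD1 (YNR043W), which makes isopentenyl pyrophosphate, stood at -3.33 ± 0.46. CLB2 (YPR119W), the main mitotic cyclin, was at 0.978 and 1.65 in stationary phase and at 15.2 and 18.3 in log phase (-3.72 ± 0.73). HAM1 (YJR069C), which clears abnormal purine nucleotides, was at -3.49 ± 0.58, and SUR7 (YML052W), a protein of plasma membrane eisosomes, at -3.37 ± 0.46. MF(ALPHA)1 (YPL187W), the precursor of the alpha-factor pheromone, was at -3.37 ± 0.92. SFG1 (YOR315W), a putative regulator of filamentous growth, was at -3.29 ± 0.69. GPP2 (YER062C), a glycerol phosphatase, was at -3.27 ± 0.49 and CIR1 (YGR207C), a mitochondrial electron transfer flavoprotein homolog, at -3.25 ± 0.66. Stationary-phase and log-phase arrays did not overlap for any of the 12. These genes were picked by this same difference, so that is no separate support, and the share over all genes was not counted. MF(ALPHA)1 and CIR1 lost the call with quantile normalization repeated.

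**Figure D1:**
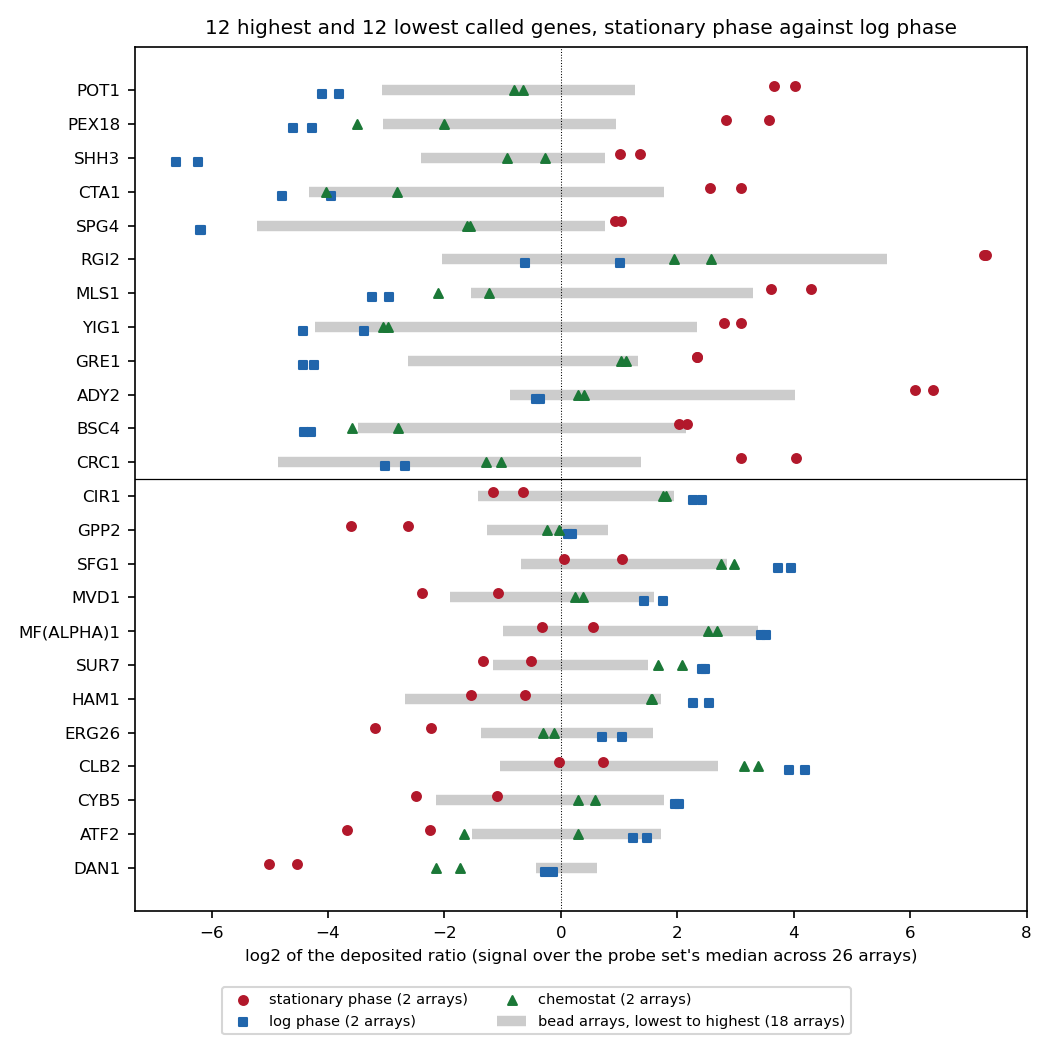
Log2 of the deposited ratio (horizontal axis) of the 12 highest and the 12 lowest called genes, with 1 point per array of stationary phase, log phase and the chemostat and a grey bar from the lowest to the highest of the 18 bead arrays. The stationary-phase points of POT1, PEX18, SHH3, CTA1 and RGI2 lie to the right of every other array, and those of DAN1 lie to the left of every other array.

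Most genes of peroxisomal fatty acid oxidation rose. Of 25 tested genes of the peroxisome and fatty acid oxidation 19 rose and 2 fell, with a median log2 fold change of 2.08, beside 22.8% rises and a median of 0.04 over all genes. POX1, the acyl-CoA oxidase that opens the path, had ratios of 2.70 and 4.84 in stationary phase and of 0.0645 and 0.0683 in log phase (5.77 ± 0.61). IDP3, which supplies NADPH inside the peroxisome, rose by 5.52 ± 0.58. With POT1 and CTA1 these are the 4 members of largest change. FAT1 and ANT1 were lower, FAT1, an acyl-CoA synthetase with a part in fatty acid uptake, by -1.57 ± 0.26 and ANT1, the ATP carrier of the peroxisome membrane, by -1.50 ± 0.34. For 14 of the 25 genes both stationary-phase arrays were the highest of the 26. After repeated quantile normalization 14 were higher and 1 lower.

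Most genes of acetate use and of sugar synthesis from small carbon compounds rose as well. Of 10 genes of acetate uptake and the carnitine shuttle, which moves acetyl groups into mitochondria, 8 rose and 1 fell, with a median of 4.17. YAT1, a carnitine acetyltransferase on the outside of mitochondria, stood at 25.7 and 30.9 in stationary phase against 0.583 and 0.691 in log phase (5.47 ± 1.12). CAT2, the carnitine acetyltransferase of peroxisomes and mitochondria, rose by 4.52 ± 0.46. HNM1, the choline and carnitine permease, was the member that fell, at -1.61 ± 0.31. Of 15 genes of gluconeogenesis and the glyoxylate cycle 11 rose and none fell, with a median of 3.29, the lowest member at 0.51. PCK1, which commits carbon to gluconeogenesis, had ratios of 15.4 and 27.5 in stationary phase against 0.309 and 0.262 in log phase, 72.3-fold (6.18 ± 0.77). FBP1, fructose-1,6-bisphosphatase, stood at 11.4 and 27.7 against 0.262 and 0.334 (5.91 ± 1.23). SFC1, the succinate-fumarate carrier of mitochondria, showed the widest stationary-phase spread of these genes, 11.5 and 53.2, against 0.332 and 0.268 in log phase (6.38 ± 1.11). PCK1, FBP1 and SFC1 were picked for their large change, so it is no separate support that their stationary-phase arrays lay above both log-phase arrays. YAT1 and HNM1 lost the call with quantile normalization repeated, and the lists then held 5 and 8 rises.

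Regulators of glucose repression changed in level themselves. Among 30 such genes 15 rose and 3 fell, with a median of 1.22. The activators led: CAT8, which switches on gluconeogenic genes, had ratios of 5.28 and 6.22 in stationary phase and of 0.125 and 0.531 in log phase (4.47 ± 0.84). SIP4, a partner activator of the same promoters, stood at 2.47 and 3.05 against 0.169 and 0.164 (4.04 ± 0.56), and ADR1, the activator of peroxisomal and ethanol genes, at 2.73 and 3.17 against 0.131 and 0.370 (3.74 ± 0.68). HAP4, the limiting subunit of the activator of respiratory genes, rose by 2.69 ± 0.88, HAP2 by 1.25 ± 0.42, and RDS2, another gluconeogenic activator, by 2.38 ± 0.25. HAP3 at 0.83 ± 0.51, HAP5 at 0.69 ± 0.49 and ERT1 at 0.52 ± 0.33 were not called. The Snf1 kinase subunits went different ways: SIP2, a scaffold subunit, rose by 2.50 ± 0.41, SNF4, the activating subunit, was lower at -1.48 ± 0.34, and SNF1 at -0.31 ± 0.44, GAL83 at -0.61 ± 0.35 and SIP1 at 0.55 ± 0.23 were not called. REG1 and REG2, which direct the Glc7 phosphatase against Snf1, rose by 1.70 ± 0.29 and 3.45 ± 1.03, and GLC7 was at -0.19 ± 0.35.

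Among the repressors MIG3 rose by 2.58 ± 0.54 and NRG2 fell to ratios of 0.0705 and 0.0889 in stationary phase, against 0.470 and 0.556 in log phase (-2.69 ± 0.36). MIG1 at 0.76 ± 0.41, MIG2 at -1.37 ± 0.99 and NRG1 at 1.53 ± 0.70 were not called. Of the sensors of external sugar SNF3, of high affinity, rose by 2.07 ± 0.32, while RGT2, of low affinity, was at 0.38 ± 0.47. Of their targets that hold hexose transporter genes off, RGT1 rose by 2.23 ± 0.56, MTH1 by 1.41 ± 0.48, and STD1 was lower at -1.33 ± 0.46. GRR1, which destroys Mth1 and Std1, stood at 0.59 ± 0.20. The glucose receptor GPR1 rose by 1.19 ± 0.23 and its G protein GPA2 by 1.30 ± 0.28. Repeated quantile normalization left 6 rises and 1 fall, those of CAT8, SIP4, RDS2, SIP2, SNF3, REG1 and NRG2. REG2 and HAP4 lost the call without log phase replicate 1 or stationary phase replicate 2, STD1 without log phase replicate 1 or stationary phase replicate 1, HAP2 without any of the 4 batch arrays, and MTH1 without any but log phase replicate 2.

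**Figure D2:**
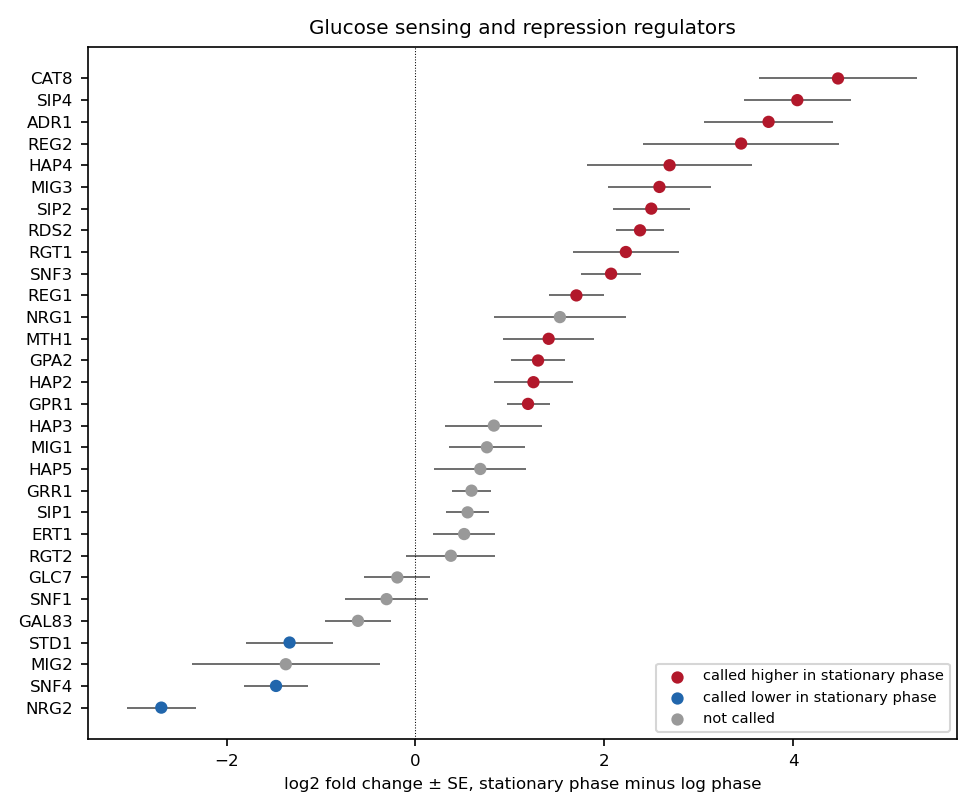
Log2 fold change ± SE of stationary phase minus log phase (horizontal axis) for 30 regulators of glucose sensing and repression, 1 point per gene, coloured by call. CAT8 at 4.47 and SIP4 at 4.04 stand at the top and NRG2 at -2.69 at the bottom.

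Genes of hexose uptake and phosphorylation moved in both directions. Of 18 tested genes 7 rose (38.9%) and 5 fell (27.8%), with a median of 0.78, beside 22.8% and 21.7% over all genes. HXT5, a transporter of moderate affinity made by slow-growing cells, stood at 1.91 and 1.93 in stationary phase against 0.0232 and 0.0284 in log phase, 74.7-fold (6.22 ± 0.36, adjusted p = 1.18e-10). HXK2, the hexokinase of glucose-grown cells, was at 0.469 and 0.965 against 5.95 and 6.03 (-3.15 ± 0.50). HXT4 was lower at -3.09 ± 0.66 and HXT14 higher by 2.79 ± 0.85. Glycolysis had 1 rise and 6 falls (27.3%) among 22 genes and a median of -0.53, beside 21.7% falls over all genes. PFK27, which makes the activator of phosphofructokinase, was lower at -2.06 ± 0.45, the phosphofructokinase subunit gene PFK2 at -1.89 ± 0.58 and the pyruvate decarboxylase gene PDC5 at -1.77 ± 0.69. PDC6, a minor pyruvate decarboxylase, was the 1 that rose, with ratios of 1.05 and 0.576 in stationary phase against 0.0802 and 0.103 in log phase (3.10 ± 0.73). HXT14 lost the call without log phase replicate 2 or stationary phase replicate 2, and PDC5 without any 1 of the 4 batch arrays. Of these genes HXT5 and HXK2 alone kept it with quantile normalization repeated.

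Pairs of related genes were listed, many with 1 member known for scarce sugar, stress or respiration and the other for growth on glucose. Others have no such split: COX5B and COX5A are hypoxic and aerated forms, and CTT1 and CTA1 are both catalases. The pair counts therefore do not measure 1 kind of switch. Differences within a pair were not tested. In 7 of 40 pairs 1 member rose and the other fell. HXT5 stood against HXT3 (6.22 ± 0.36 and -1.79 ± 0.53), a low-affinity transporter of glucose-grown cells. In the pentose phosphate pathway, which makes NADPH, TKL2 stood against TKL1 (5.06 ± 0.53 and -2.04 ± 0.56), NQM1 against TAL1 (4.18 ± 0.55 and -1.67 ± 0.32) and GND2 against GND1 (3.13 ± 0.45 and -2.18 ± 0.45). TKL2 had ratios of 2.00 and 2.26 in stationary phase against 0.0503 and 0.0804 in log phase, and TKL1 of 0.358 and 0.789 against 2.28 and 2.10. The acetyl-CoA synthetase gene ACS1 rose while ACS2 fell (3.29 ± 0.50 and -2.61 ± 0.42). URA10 rose while URA5 fell (3.01 ± 0.54 and -1.56 ± 0.29), both orotate phosphoribosyltransferases of pyrimidine synthesis. COX5A, the cytochrome oxidase subunit of aerated cells, rose by 1.82 ± 0.66, and its hypoxic form COX5B was lower at -1.22 ± 0.34.

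In 12 further pairs 1 member rose and the other was not called. SSA3 stood against SSA1 (4.42 ± 0.66 and -0.43 ± 0.19), GDH3 against GDH1 (3.35 ± 0.79 and -1.48 ± 0.65), CIT3 against CIT1 (5.15 ± 0.64 and 0.62 ± 0.33), IDP2 against IDP1 (3.65 ± 0.68 and -0.64 ± 0.38) and MDH2 against MDH1 (2.79 ± 0.41 and 0.61 ± 0.40). NDE2 with NDE1, SSA4 with SSA2, CYC7 with CYC1, SSE2 with SSE1, CIT2 with CIT1, NTH2 with NTH1 and ICL1 with ICL2 completed them. In 14 pairs 1 member fell and the other was not called. RNR1 stood at -3.09 ± 0.94 beside RNR3 at 1.39 ± 0.74, SOL3 at -2.24 ± 0.41 beside SOL4 at 0.99 ± 0.51, PYC2 at -1.32 ± 0.30 beside PYC1 at 0.96 ± 0.36 and HXK2 beside HXK1 at -0.95 ± 0.25. GPD2 at -2.17 ± 0.59 stood beside GPD1 at -0.32 ± 0.47 and GPP2 beside GPP1 at -2.02 ± 0.92, both pairs of glycerol synthesis. The rest were TPS3 beside TSL1, ALD6 beside ALD4, PGM1 beside PGM2, ENO1 beside ENO2, PDC5 beside PDC1, ANB1 beside HYP2, LSB1 beside PIN3 and PFK27 beside PFK26. Both catalases rose, CTT1 of the cytosol by 3.00 ± 0.41 beside CTA1. In 6 pairs neither was called: HSP82 and HSC82, PYK2 and CDC19, ADH2 and ADH1, GSY1 and GSY2, TDH1 and TDH3, and AAC3 and PET9. ADH2, the alcohol dehydrogenase that uses ethanol, had ratios of 1.75 and 2.60 in stationary phase against 1.01 and 2.21 in log phase, which overlap. HXT3 lost the call without log phase replicate 1 or stationary phase replicate 1, TKL1 without stationary phase replicate 1, GPD2 and RNR1 without either of 2 batch arrays, ALD6 and COX5A without any of 3 and LSB1 without any of the 4. Quantile normalization repeated left TKL2, NQM1, GND2, SSA3, CIT3, NDE2, IDP2, MDH2, ICL1, CTT1, TAL1, ACS2, SOL3, PGM1 and ENO1 called, beside HXT5, HXK2, GPP2 and CTA1.

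**Figure D3:**
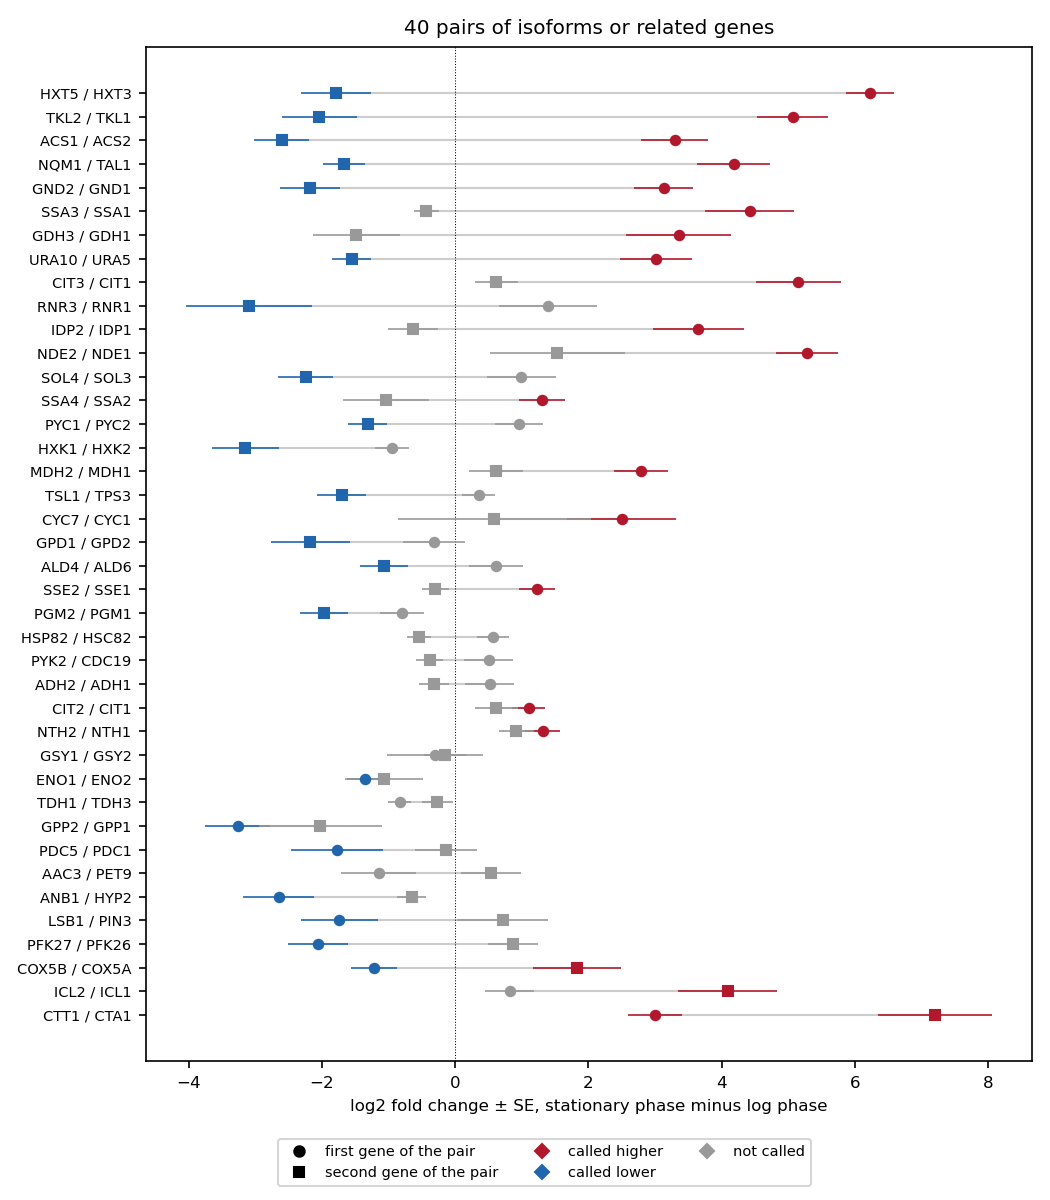
Log2 fold change ± SE of stationary phase minus log phase (horizontal axis) for both members of 40 pairs of related genes, joined by a line and ordered by the difference within the pair. In the upper rows the first member lies to the right and the second to the left of 0, as for HXT5 at 6.22 and HXT3 at -1.79, and in the lowest row both catalases, CTT1 and CTA1, lie to the right.

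Respiratory chain genes rose more often than they fell, in cultures that were labelled anaerobic. Of 38 tested genes of the respiratory chain and ATP synthase 17 rose and 1 fell, with a median of 1.25. NDE2, which passes electrons of cytosolic NADH to the chain, stood at 6.80 and 5.94 in stationary phase against 0.144 and 0.186 in log phase (5.28 ± 0.46). CYB2, the lactate dehydrogenase that feeds cytochrome c, rose by 2.86 ± 0.86, CYC7, a cytochrome c isoform, by 2.50 ± 0.82 and GUT2, the mitochondrial glycerol phosphate dehydrogenase, by 2.23 ± 0.72. The major cytochrome c gene CYC1 was not called at 0.59 ± 1.45. In the TCA cycle 6 of 18 genes rose (33.3%) and 3 fell (16.7%), with a median of 0.54, beside 22.8% and 21.7% over all genes. CIT3, a minor citrate synthase of mitochondria, had ratios of 8.17 and 14.2 in stationary phase against 0.281 and 0.327 in log phase (5.15 ± 0.64). SDH2 of succinate dehydrogenase rose by 1.81 ± 0.47 and KGD1 of ketoglutarate dehydrogenase by 1.80 ± 0.30, while LSC1 of succinyl-CoA ligase was lower at -1.75 ± 0.29. The mitochondrial ribosome showed no shared direction: 4 of 66 genes rose and 6 fell, with a median of -0.09. MRPL32 at -2.07 ± 0.54, MRPL25 at -1.83 ± 0.48 and MRPL11 at -1.75 ± 0.31 were lower, and MRPS17 rose by 1.94 ± 0.78. CYB2 and GUT2 lost the call without log phase replicate 1 or stationary phase replicate 2, CYC7 without any but log phase replicate 2 and MRPS17 without any 1 of the 4. Under repeated quantile normalization 1 respiratory gene, NDE2, and 2 rises and 1 fall of the TCA list remained. Over all genes 6.06% then rose and 5.38% fell, so the respiratory list held a smaller share of rises than all genes did.

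Among the stored carbohydrates, most glycogen genes rose. In glycogen metabolism 10 of 15 genes rose and 2 fell, with a median of 1.88. SGA1, a glucoamylase known from sporulating cells, had ratios of 0.874 and 0.906 in stationary phase against 0.0530 and 0.0723 in log phase (3.85 ± 0.73). GLG2, a glycogenin that starts new chains, stood at 9.93 and 8.66 against 1.01 and 0.941 (3.25 ± 0.41), and the phosphatase-targeting subunit genes PIG2 and GAC1 rose by 3.07 ± 0.53 and 2.19 ± 0.78. The glycogen synthases were not called, GSY1 at -0.30 ± 0.72 and GSY2 at -0.16 ± 0.32. Of 10 trehalose genes 2 rose and 2 fell, with a median of 0.15. Each share, 20.0%, is near the 22.8% rises and 21.7% falls over all genes. The 2 that rose both break trehalose down, ATH1 of the vacuole and cell surface by 2.06 ± 0.30 and NTH2 of the cytosol by 1.31 ± 0.26. TPS3, a subunit of the synthase complex, was lower at -1.71 ± 0.37 and PGM1, a phosphoglucomutase, at -1.96 ± 0.36. GAC1 lost the call without any 1 of 3 batch arrays. GLG2, PIG2, ATH1 and PGM1 kept it with quantile normalization repeated.

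Genes known for quiescence rose in most cases and fell in none. Of 26 tested 20 rose and none fell, with a median of 2.71. FMP45, a plasma membrane protein of the Sur7 family, had ratios of 11.6 and 11.1 in stationary phase and of 0.0801 and 0.328 in log phase (6.13 ± 0.84), in the direction opposite to SUR7. SPG4, RGI2 and GRE1 are the other members of largest change, and for 12 of the 26 genes the stationary-phase arrays were the highest of the series. SPG1 and SPS100 had no value on either log-phase array and were not tested. Of 28 genes under Msn2 and Msn4, the general stress activators, 17 rose and 2 fell, with a median of 1.44. GPX1, a peroxidase, stood at 1.64 and 1.75 in stationary phase against 0.0677 and 0.114 in log phase (4.27 ± 0.54). ALD3, an aldehyde dehydrogenase, rose by 4.14 ± 0.51 and XBP1, a repressor of cyclin genes, by 3.82 ± 1.02, and GPP2 fell. Repeated quantile normalization left 13 rises among the quiescence genes, and 6 rises and 1 fall among the Msn2 and Msn4 genes, not that of XBP1.

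Heat shock genes rose more often than they fell, and genes of oxidative stress defence showed no shared direction. Of 26 heat shock genes 10 rose (38.5%) and 2 fell (7.69%), with a median of 0.59, beside 22.8% and 21.7% over all genes. HSP30, a stress protein that restrains the plasma membrane proton pump, had ratios of 1.12 and 1.17 in stationary phase against 0.0176 and 0.0293 in log phase (5.66 ± 0.28). SSA3 of the cytosolic Hsp70 family stood at 2.04 and 1.96 against 0.0936 on both log-phase arrays. SNO4, whose probe set can also bind near-identical genes, rose by 4.24 ± 0.51 and HSP31 of the same family by 2.16 ± 0.29. These 4 kept the call with quantile normalization repeated. Of 29 genes of oxidative stress defence 5 rose (17.2%) and 6 fell (20.7%), with a median of 0.40. Both shares lie below the 22.8% and 21.7% over all genes. Besides CTA1 the largest changes were falls: GSH2 of glutathione synthesis at -2.32 ± 0.33, the thioredoxin gene TRX1 at -2.02 ± 0.39 and the thioredoxin reductase gene TRR1 at -1.88 ± 0.31. TRX1 lost the call with quantile normalization repeated.

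Kinases and regulators of nutrient signalling changed by 2.08 at most on the log2 scale. Of 23 tested 7 rose and 2 fell, with a median of 0.58. PDE1, which degrades cyclic AMP, rose by 2.08 ± 0.37, SCH9, the growth kinase under TORC1, by 1.94 ± 0.47, YAK1, a kinase that opposes protein kinase A, by 1.58 ± 0.28 and FOB1, which blocks replication forks in ribosomal DNA, by 1.55 ± 0.26. SFP1, an activator of ribosomal protein genes, rose by 1.35 ± 0.25, IGO1, which protects messengers of quiescent cells, by 1.33 ± 0.38 and the protein kinase A subunit gene TPK2 by 1.31 ± 0.24. RAS1 was lower at -1.10 ± 0.33 and the kinase gene MCK1 at -1.04 ± 0.30. The 14 that were not called lay between TPK3 at -0.61 ± 0.30 and IGO2 at 1.03 ± 0.48. RAS1 lost the call without log phase replicate 1 or stationary phase replicate 1 and MCK1 without stationary phase replicate 2, and of the 9 calls PDE1 alone remained with quantile normalization repeated.

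Most genes of autophagy, by which cells digest their own contents in the vacuole, rose. Of 32 tested ATG genes 22 rose and 1 fell, with a median of 1.91. ATG39, the receptor that feeds the nuclear envelope to autophagy, had ratios of 4.61 and 3.65 in stationary phase and of 0.149 and 0.261 in log phase (4.38 ± 0.70). ATG8, the ubiquitin-like protein that coats the growing membrane, stood at 1.66 and 1.80 against 0.145 and 0.292 (3.07 ± 0.50), and ATG11, the scaffold of selective autophagy, at 2.43 and 2.33 against 0.292 and 0.284 (3.04 ± 0.26). ATG15, the vacuolar lipase that opens the delivered bodies, rose by 3.49 ± 0.69, with a log-phase spread from 0.0479 to 0.489. For 14 of the 32 genes both stationary-phase arrays were the highest of the 26. In the vacuole 6 of 11 hydrolase genes rose and 1 fell, with a median of 1.31. AMS1, a mannosidase delivered by selective autophagy, rose by 2.09 ± 0.28 and the phosphatase gene PHO8 by 2.08 ± 0.22, while APE1, an aminopeptidase brought in by the same route, was lower at -1.91 ± 0.52. Proteasome genes stayed near 0: 1 of 33 rose and 3 fell, with a median of -0.12. The 1 that rose was RPN4, the activator of proteasome genes, by 1.69 ± 0.32, and the subunit genes PRE6 at -1.39 ± 0.36, RPN7 at -1.10 ± 0.22 and PUP1 at -1.09 ± 0.36 were lower. PUP1 lost the call without any 1 of 3 batch arrays. Repeated quantile normalization left 13 ATG genes and 3 hydrolase genes higher, and no proteasome gene was called.

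Most ribosomal protein genes fell. Of 127 tested genes of the cytosolic ribosome 92 fell and none rose, with a median of -1.34, beside 21.7% falls over all genes. RPL13A had ratios of 0.506 and 0.917 in stationary phase and of 6.00 and 4.82 in log phase, 7.89-fold lower (-2.98 ± 0.55). RPS17B at -2.76 ± 0.63 and RPS0B at -2.62 ± 0.57 were next, with RPL41A at -2.73 ± 0.68, whose probe set can also bind its near-identical copy. The highest member was RPS27A at 0.33 ± 0.35, not called. In 31 of 50 measured pairs of duplicated genes both copies fell, in 16 pairs 1 copy fell and in 3 neither. In 6 pairs the copies differed by more than 1 on the log2 scale, most in RPS18A at -0.83 and RPS18B at -2.27, a difference that was not tested. Repeated quantile normalization left 7 falls among the 127, a share close to the 5.38% falls over all genes. RPL13A, RPS17B, RPS0B and RPL41A were not among those 7.

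Among genes that build the ribosome or work with it, the shares that fell differed by list, beside 21.7% over all genes. Of 76 ribosome biogenesis factors 24 fell and 1 rose, with a median of -0.87. RRP3, an RNA helicase, was lower at -2.83 ± 0.60, NOP1, the methylase of box C/D particles, at -2.81 ± 0.71, its partner NOP56 at -2.63 ± 0.61 and GAR1 of box H/ACA particles at -2.43 ± 0.41. Of 27 subunits and factors of RNA polymerases I and III 6 fell and none rose, with a median of -0.45, and the 22.2% that fell are near the share over all genes. The 4 lowest were RPA49 at -2.57 ± 0.60, RPA43 at -1.99 ± 0.74, RPA12 at -1.91 ± 0.46 and RPA135 at -1.77 ± 0.39, all of polymerase I. Among 35 translation factors 15 fell and none rose, with a median of -0.95. ANB1, the anaerobic form of the factor eIF5A, stood at 0.239 and 0.262 in stationary phase against 2.12 and 1.17 in log phase (-2.65 ± 0.54). NIP1 at -2.25 ± 0.34 and PRT1 at -1.89 ± 0.25, subunits of eIF3, and TEF4, an elongation factor subunit, at -2.00 ± 0.65 followed. RPA43 lost the call without log phase replicate 1 or stationary phase replicate 1 and TEF4 without any but stationary phase replicate 2. GAR1, NIP1 and PRT1 kept it with quantile normalization repeated. That step left 3 falls among the 76 biogenesis factors, 1 among the 27 polymerase genes and 2 among the 35 translation factors. Over all genes 5.38% then fell, so none of these 3 lists stood clearly above the background. The ribosomal RNA probe sets themselves had higher ratios in stationary phase, as given above, and their part here was not tested.

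**Figure D4:**
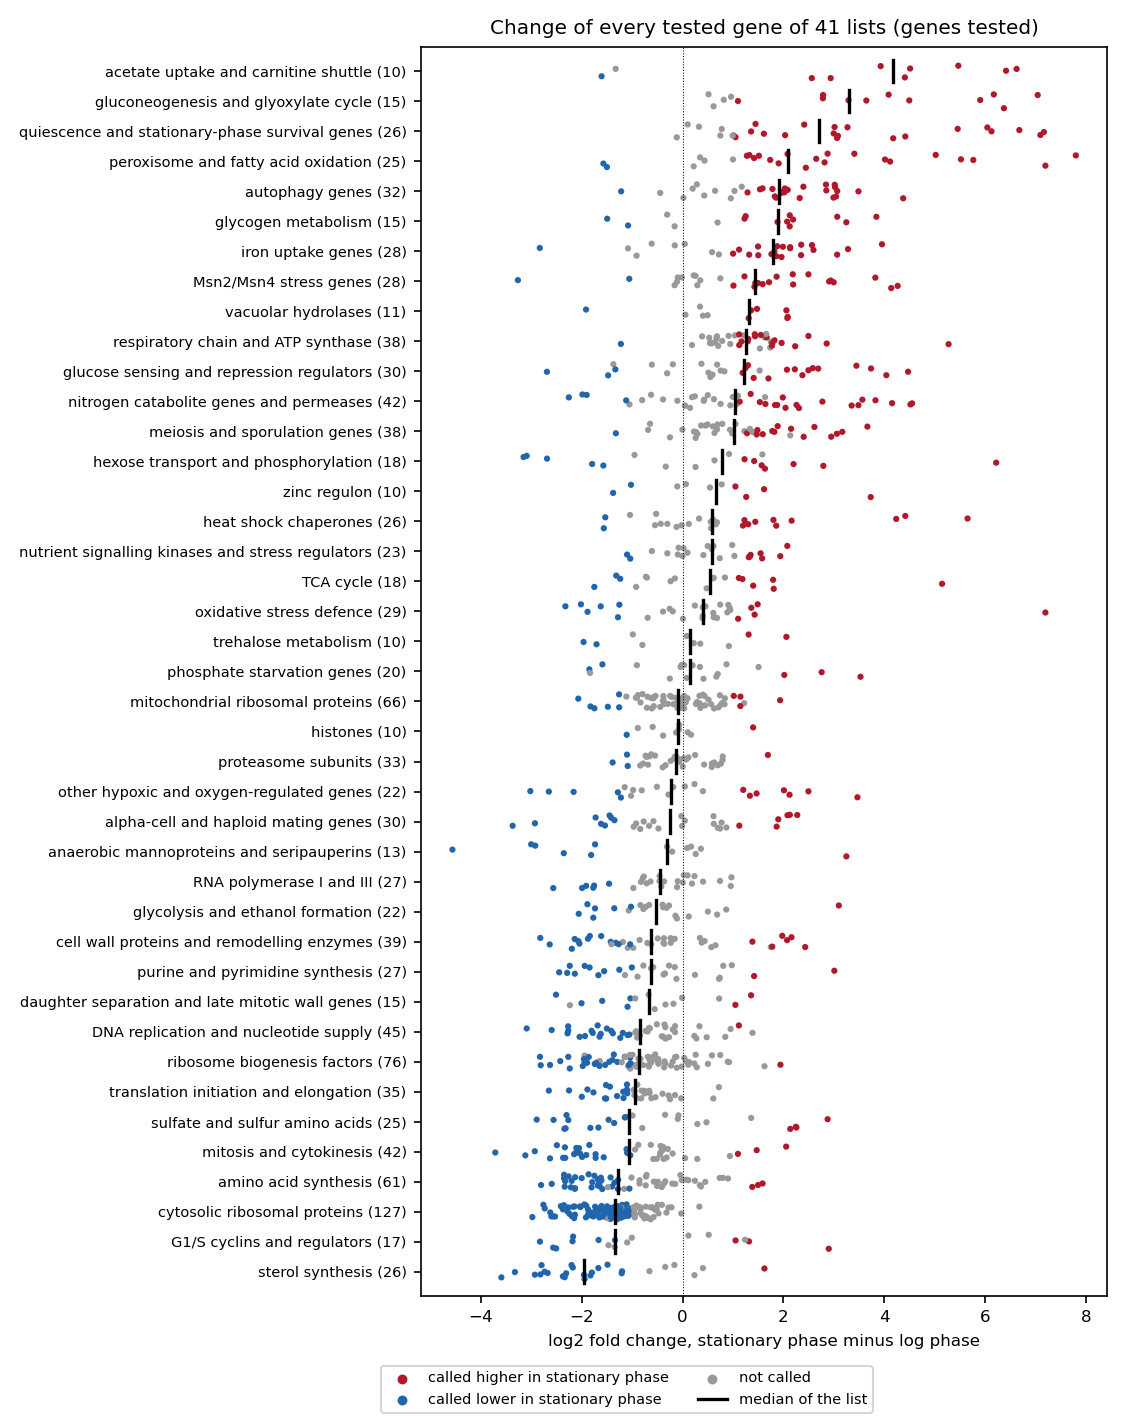
Log2 fold change of stationary phase minus log phase (horizontal axis) of every tested gene of 41 lists, 1 point per gene coloured by call, with the median of each list as a black bar and the lists ordered by it. Acetate uptake with a median of 4.17 stands at the top and sterol synthesis with -1.95 at the bottom, and none of the 127 ribosomal protein genes is called higher.

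Amino acid synthesis fell in 31 of 61 genes and rose in 3, with a median of -1.28. ARO7, chorismate mutase, had ratios of 0.259 and 0.489 in stationary phase and of 3.10 and 2.00 in log phase (-2.81 ± 0.35). LEU2 was lower at -2.60 ± 0.55, LYS9 at -2.35 ± 0.89 and ARO4, the first enzyme of aromatic amino acid synthesis, at -2.35 ± 0.58. In purine and pyrimidine synthesis 10 of 27 genes fell and 2 rose, with a median of -0.62. All 3 IMD genes of the list's 4 largest changes, whose products make guanine nucleotides, were lower, IMD2 at -2.45 ± 0.45 with a probe set that can also bind its relatives, IMD4 at -2.29 ± 0.48 and IMD3 at -2.24 ± 0.68. LYS9 lost the call without any 1 of 3 batch arrays and IMD3 without stationary phase replicate 1. ARO7 and IMD2 kept it with quantile normalization repeated.

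Genes of cell division fell more often than they rose. Of 42 genes of mitosis and cytokinesis 22 fell and 3 rose, with a median of -1.07. After CLB2, CHS2, the chitin synthase of the septum, stood at 0.825 and 1.95 in stationary phase against 8.46 and 14.3 in log phase (-3.12 ± 0.76). The cyclin gene CLB1 was lower at -2.93 ± 0.90 and the mitotic kinase gene ALK1 at -2.63 ± 0.65. Of 17 G1/S cyclins and regulators 7 fell and 3 rose, with a median of -1.34. The S-phase cyclin gene CLB6 had ratios of 0.857 and 1.25 in stationary phase against 7.49 and 7.20 in log phase (-2.83 ± 0.49), and PCL1 was lower at -2.57 ± 0.94 and FAR1 at -2.51 ± 0.66. WHI5, the repressor that holds cells before Start, rose by 2.90 ± 1.07, with ratios of 5.89 and 3.06 in stationary phase, while the log-phase arrays were far apart at 0.114 and 2.83. It lost the call without log phase replicate 1 or stationary phase replicate 1. In DNA replication and nucleotide supply 19 of 45 genes fell and 1 rose, with a median of -0.84, led by RNR1 of ribonucleotide reductase, MCM5 of the replicative helicase at -2.60 ± 0.32, the sliding clamp gene POL30 at -2.28 ± 0.52 and DUT1, which removes dUTP, at -2.27 ± 0.44.

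Histone genes stayed closer to 0, with 1 rise and 1 fall among 10 and a median of -0.10. CSE4, the centromeric histone, rose by 1.40 ± 0.40 and HTB2 was lower at -1.11 ± 0.36, while HTA2 at -0.89 and HHT2 at -0.59 were not called. Of 15 genes of daughter separation 5 fell and 2 rose, with a median of -0.67. PIR1, a wall protein, was lower at -2.51 ± 0.49, SUN4 of the septum at -2.00 ± 0.46 and the daughter-side glucanase gene DSE2 at -1.59 ± 0.46, and TOS6 at -2.23 ± 1.37 was not called. CLB1 lost the call without stationary phase replicate 1, PCL1 without any but stationary phase replicate 2, and CSE4, HTB2 and DSE2 without log phase replicate 2 or stationary phase replicate 1. CLB2, CLB6, MCM5, DUT1 and PIR1 kept it with quantile normalization repeated. That step left 7 falls and 1 rise among the 42 genes of mitosis and cytokinesis and 2 falls among the 17 G1/S genes. It left 3 falls among the 45 replication genes and 1 among the 15 of daughter separation. Over all genes 5.38% then fell, so the share of the replication list was near the background.

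Sterol synthesis had the lowest median of the 41 lists, -1.95, with 20 falls and 1 rise among 26 genes. ERG26, MVD1, ERG5 and ERG13 changed most. ERG5, the desaturase near the end of the path, had ratios of 0.0926 and 0.191 in stationary phase and of 0.853 and 1.20 in log phase (-2.93 ± 0.35). ERG13, which makes HMG-CoA at the start of the path, stood at 0.317 and 0.503 against 2.66 and 2.99 (-2.82 ± 0.57). The 1 that rose, ARE2, which stores sterols as esters, did so by 1.62 ± 0.54 and was chosen for mention after its value was seen. Its call was lost without any 1 of 3 batch arrays. After repeated quantile normalization 14 falls stood, not that of ERG13.

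Some genes that respond to low oxygen also differed between these cultures, both of which were labelled anaerobic. Of 13 tested anaerobic mannoprotein and seripauperin genes 6 fell and 1 rose, with a median of -0.31. After DAN1, TIR3 had ratios of 0.0261 and 0.0295 in stationary phase against 0.278 and 0.178 in log phase (-3.003 ± 0.47), and TIR1 of 0.0732 and 0.0707 against 0.553 and 0.538 (-2.92 ± 0.24). PAU3, whose probe set can also bind other seripauperin genes, rose by 3.25 ± 0.50. Among 22 other oxygen-regulated genes 7 rose (31.8%) and 5 fell (22.7%), with a median of -0.23. Over all genes 22.8% rose and 21.7% fell, so the share that fell is near the background. HEM13, an enzyme of heme synthesis that is raised without oxygen, stood at 0.188 and 0.220 in stationary phase against 1.75 and 1.55 in log phase (-3.02 ± 0.41). ANB1 fell too, while AAC1, the aerobic ADP/ATP carrier, rose with ratios of 6.46 and 5.89 in stationary phase against 0.398 and 0.779 in log phase (3.47 ± 0.39). CYC7, known as a hypoxic gene, rose as given above. Oxygen in the cultures was not among the values used here. PAU3, ANB1 and CYC7 lost the call with quantile normalization repeated, and DAN1, TIR3, TIR1, HEM13 and AAC1 kept it.

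Of 39 genes of the cell wall 13 fell and 6 rose, with a median of -0.62. GAS5, a glucan elongase, had ratios of 0.102 and 0.194 in stationary phase against 1.02 and 0.970 in log phase (-2.82 ± 0.34). UTR2, which links chitin to glucan, was lower at -2.64 ± 0.74 and the Gas family gene GAS3 at -2.20 ± 0.36. PIR3, a wall protein with internal repeats, rose by 2.43 ± 0.28, although both groups were low in the series, at 0.246 and 0.129 in stationary phase against 0.0253 and 0.0430 in log phase. Against the chemostat, where PIR3 stood at 0.540 and 0.738, stationary phase was lower by -1.83 ± 0.28. UTR2 lost the call against log phase without stationary phase replicate 1, and UTR2 and PIR3 lost it with quantile normalization repeated.

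**Figure D5:**
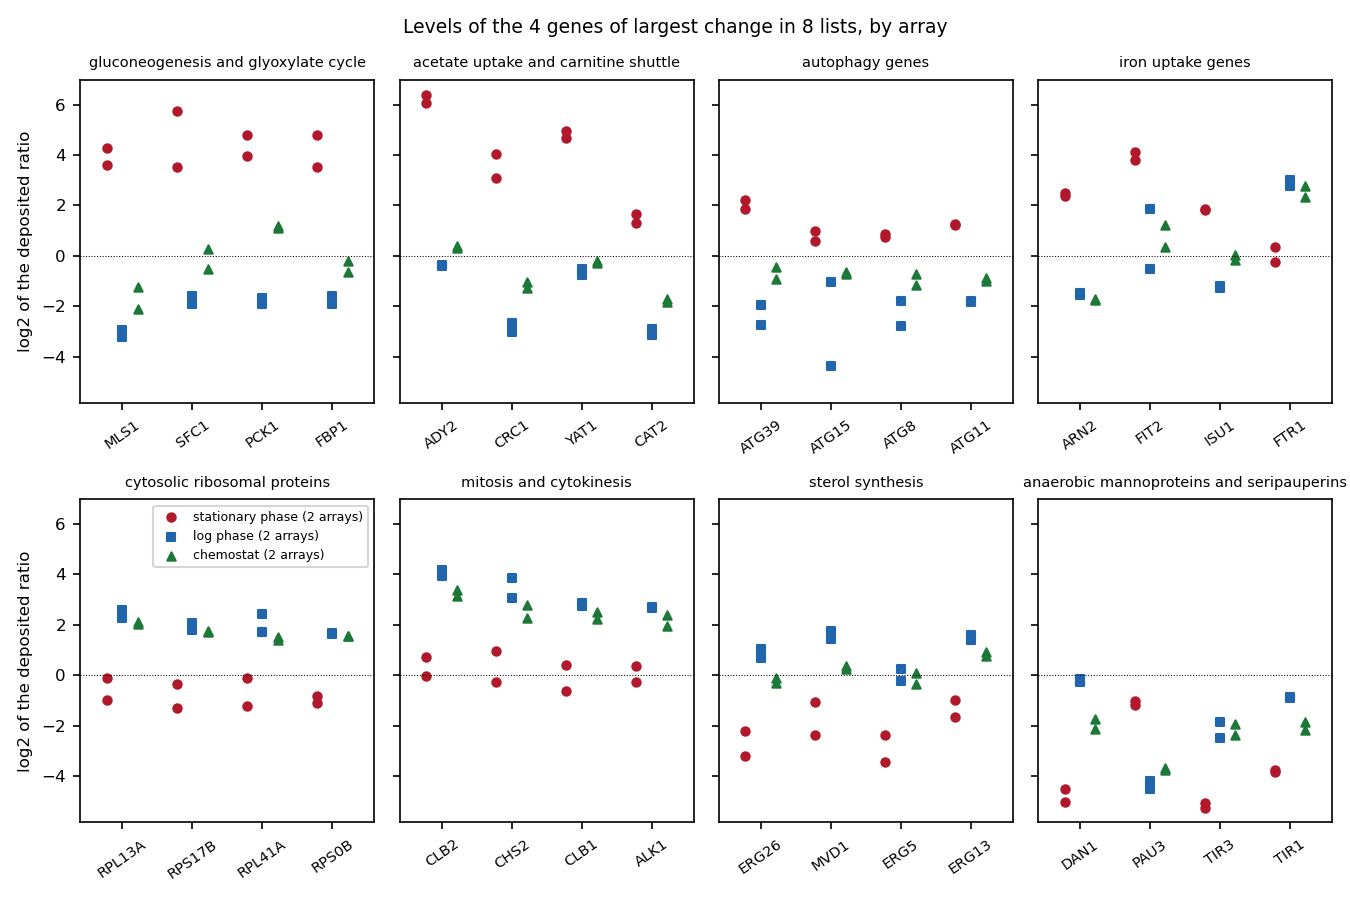
Log2 of the deposited ratio (vertical axis) for the 4 genes of largest change in 8 lists, with 2 points each for stationary phase, log phase and the chemostat. In the gluconeogenesis panel the stationary-phase points lie above all others, in the ribosomal, mitosis and sterol ones they are the lowest, and in the iron panel FTR1 is the gene whose stationary-phase points are the lowest.

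Uptake genes for nitrogen and iron rose more often than they fell. Of 42 genes under nitrogen catabolite control and permeases 18 rose and 4 fell, with a median of 1.04. UGA4, the permease of GABA, stood at 9.53 and 9.55 in stationary phase against 0.404 and 0.408 in log phase (4.55 ± 0.56). The peptide transporter gene PTR2 was at 1.78 and 2.06 against 0.0829 and 0.0839 (4.52 ± 0.73), the amino acid permease gene AGP1 rose by 4.16 ± 0.46 and the proline permease gene PUT4 by 3.83 ± 1.16. Of 28 iron uptake genes 20 rose and 1 fell, with a median of 1.79. ARN2, a siderophore transporter, had ratios of 5.25 and 5.59 in stationary phase against 0.358 and 0.340 in log phase (3.96 ± 0.51). FIT2, a wall protein that retains siderophores, stood at 14.02 and 17.3 against 0.704 and 3.64 (3.28 ± 0.60), and ISU1, a scaffold of iron-sulfur clusters, rose by 3.07 ± 0.47. FTR1, the permease of the high-affinity iron system, was the 1 that fell, at 0.852 and 1.26 in stationary phase against 6.81 and 8.03 in log phase (-2.83 ± 0.79). PUT4 lost the call without log phase replicate 1 or stationary phase replicate 2. Of each list 4 rises stood after repeated quantile normalization, among them those of UGA4, AGP1, ARN2, FIT2 and ISU1.

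Sulfur genes fell more often than they rose, with 12 falls and 4 rises among 25 and a median of -1.06. SAM1, S-adenosylmethionine synthetase, was lower at -2.89 ± 0.66, MET3, ATP sulfurylase, at -2.56 ± 0.49 and MET16, which reduces activated sulfate, at -2.34 ± 0.61. MET30, the ubiquitin ligase subunit that restrains this pathway, had ratios of 2.41 and 2.54 in stationary phase against 0.357 and 0.317 in log phase (2.88 ± 0.65). Of 20 phosphate starvation genes 3 rose (15.0%) and 2 fell (10.0%), with a median of 0.14. Both shares lie below the 22.8% and 21.7% over all genes. PHO4, the activator of the pathway, rose by 3.53 ± 0.64, the phosphate transporter gene PHO89 by 2.76 ± 1.07 and SPL2 by 2.02 ± 0.72, and PHO3, a phosphatase gene, was lower at -1.85 ± 0.54. PHO89 stood at 8.35 and 15.6 in stationary phase against 4.13 and 0.687 in log phase, a wide spread. In the zinc regulon 4 of 10 genes rose and 2 fell, with a median of 0.66. ZAP1, its activator, stood at 3.82 and 6.77 against 0.461 and 0.317 (3.73 ± 0.32), VEL1 rose by 1.62 ± 0.41, the transporter gene ZRT1 by 1.26 ± 0.32 and IZH2 was lower at -1.38 ± 0.23. PHO89 and SPL2 lost the call without any 1 of 3 batch arrays, PHO3 without log phase replicate 1 or stationary phase replicate 1 and VEL1 without stationary phase replicate 2. MET3, PHO4, ZAP1 and IZH2 kept it with quantile normalization repeated.

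Some genes known from meiosis rose in these haploid cells. Of 38 genes 14 rose and 1 fell, with a median of 1.02. MEK1, a kinase of meiotic recombination, had ratios of 3.19 and 3.43 in stationary phase and of 0.247 and 0.274 in log phase (3.67 ± 0.60). RIM4, a translational repressor of meiosis, rose by 3.17 ± 0.91, IME4, a messenger methylase, by 3.06 ± 0.52 and REC8, the meiotic cohesin, by 2.95 ± 0.27. RIM4 lost the call without log phase replicate 1 and with quantile normalization repeated. Among 30 mating genes 6 rose (20.0%) and 8 fell (26.7%), with a median of -0.25, beside 22.8% and 21.7% over all genes. The genes known to be active only in alpha cells were on the side of the falls: STE3, the receptor for a-factor, stood at 0.958 and 0.856 in stationary phase against 9.14 and 5.20 in log phase (-2.93 ± 0.53), and AFB1 at -1.72 ± 0.42, MF(ALPHA)2 at -1.62 ± 0.44 and SAG1 at -1.54 ± 0.40 joined MF(ALPHA)1. Of 6 genes on the list known from a cells 4 rose, MFA1 by 2.13 ± 0.48, STE6 by 1.90 ± 0.42, STE2 by 1.87 ± 0.37 and MFA2 by 1.13 ± 0.47, while BAR1 at 0.62 ± 0.43 and AGA2 at 0.70 ± 0.25 were not called. Of these AFB1, MF(ALPHA)2, SAG1, STE6, STE2, MFA2, BAR1 and AGA2 were chosen for mention after their values were seen. STE11, a kinase of the pheromone response in both cell types, rose by 2.28 ± 0.21. The ratio holds no absolute level, so the labelled mating type could not be checked against silent a-specific genes. MF(ALPHA)2 lost the call without log phase replicate 1 or stationary phase replicate 1, SAG1 without log phase replicate 1 and MFA2 without any batch-culture array but stationary phase replicate 1, and MFA2 kept it in only 11 of the 26 fits without 1 array. STE3, MF(ALPHA)2 and STE11 kept it with quantile normalization repeated.

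Chemostat cells, which grow slowly on little glucose, gave a second set for comparison that shares the stationary-phase arrays with the first. Against them 945 genes were higher in stationary phase (17.4%) and 950 lower (17.4%), together 1895 (34.8%), and the median of all genes was 0.01. For fat and acetate use the values were large in both comparisons: in peroxisome and fatty acid oxidation 19 genes were higher and 2 lower against the chemostat, with a median of 2.01, and in acetate uptake 8 were higher and 1 lower, with a median of 2.77. POT1 stood at 0.575 and 0.640 in the chemostat and was higher in stationary phase by 4.56 ± 0.85, and CTA1 by 6.25 ± 0.85. Autophagy gave 20 higher genes and 1 lower, with a median of 1.46, and iron uptake 15 and 1, with a median of 1.19.

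Survival and stress genes gave these values against the chemostat, where 17.4% of all genes were higher and 17.4% lower. Of the 26 quiescence genes 7 were higher and none lower, with a median of 0.86. Of the 28 Msn2 and Msn4 genes 5 were higher, a share near that of all genes, and 2 lower, with a median of 0.26. GRE1 had chemostat ratios of 2.18 and 2.04, and its difference of 1.27 ± 0.71 was not called, nor was that of HSP30 at 0.48 ± 0.28. HXT5 at 0.95 ± 0.36, TKL2 at 0.16 ± 0.53 and GND2 at -0.03 ± 0.45 were not called either. PTR2 stood at 3.43 and 2.59 in the chemostat, above both stationary-phase arrays (-0.64 ± 0.73, not called), and nitrogen genes as a list gave 10 higher and 7 lower, with a median of -0.08. Growth genes were lower against the chemostat too: 75 of 127 ribosomal protein genes were lower and none higher, with a median of -1.26, and 28 biogenesis factors were lower and 1 higher. Of 26 sterol genes 19 were lower and 1 higher, with a median of -1.57, and of 42 genes of mitosis 19 were lower and 1 higher, with a median of -0.79. Whether the 2 comparisons differ for a gene or list was not tested. After repeated quantile normalization 401 calls stood against the chemostat, and without stationary phase replicate 1 the calls numbered 1250.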

How the data were processed

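RNA of planktonic cells and, on the bead arrays, of cells in alginate was measured on Affymetrix Yeast arrays. The values the authors deposited are ratios, 1 per probe set and array, and RMA, per the submitters' processing notes, was among the tools used. Sources used here do not say what each ratio was divided by, or which version of RMA was run. The deposited ratios ran from 0.0102 to 158.7, with 9 missing values. Of 10928 probe sets 5498 were tied to 1 gene by the platform annotation, which names 5449 genes. Where several probe sets measured a gene (47 genes), that of highest mean ratio stood for it, and 12 symbols were updated through the RefSeq gene table. 3 genes lacked values in a whole group and were not tested.

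Log2 ratios were fitted in limma (version 3.58.1, R 4.3.3) with the means of 9 groups over all 26 arrays, so that the groups share 1 estimate of spread, and stationary phase was set against log phase and against the chemostat. Benjamini-Hochberg adjustment ran over all 5446 genes. A gene was called at an adjusted p under 0.05 and a log2 fold change of at least 1. An array has no read depth, and 2 arrays a group limit the precision. The calculation was tested on simulated data.

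The genes named are the 12 highest and 12 lowest called genes, the 4 of largest change in each of 41 lists, the members of 40 pairs, and 2 lists of regulators. The gene lists with their member genes, and the pairs, were chosen with earlier results of these data known. Replicate numbers do not pair the arrays (correlation of deviations -0.0222). The alternatives were other normalizations, probe set rules, thresholds, priors, array weights, sets of arrays, the replicate number as a block, and leaving out each array.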

Additional observations from a re-analysis of the deposited data

Results flagged for a closer look

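Some signals lay outside the tested genes. The poly-A spikes had a mean log2 ratio of 2.205 over the stationary-phase arrays and of -0.299 over the log-phase arrays. The ribosomal RNA probe sets had 0.86 in stationary phase and -0.822 in log phase. Of 3517 probe sets that the annotation does not list and that are no controls, 60 were higher in stationary phase and 34 lower by the same rule as for genes. SPG1 had ratios of 1.413 and 1.563 on the stationary-phase arrays and no value on either log-phase array. SPS100 had 1.033 and 1.004 in stationary phase and likewise none in log phase.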

How the results depend on the processing

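Quantile normalization repeated over the tested genes left 623 calls against log phase, 330 higher and 293 lower, and 401 against the chemostat, 217 higher and 184 lower. That step makes the arrays equally wide by construction. Leaving out 1 array at a time gave 1902 to 2484 calls against log phase, 1014 to 1282 higher and 888 to 1205 lower, the lowest each time without stationary phase replicate 1. Against the chemostat it gave 1250 to 1990 calls, 663 to 998 higher and 561 to 992 lower. The 1250 and 561 were without stationary phase replicate 1 and the 663 without chemostat replicate 1. Of the 2422 calls against log phase 1562 stood in all 26 such fits, and of the 1895 against the chemostat 1001 did. Where 1 array of a group remained, it was assumed to vary like the other groups.

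The replicate block, with the replicate number as a term, gave 2408 calls against log phase, 1236 higher and 1172 lower, and 2403 of the 2422 were kept in the same direction. The numbers do not pair the arrays, and the block changed no call of a named gene. Of 223 calls of named genes 119 were lost under repeated quantile normalization, and 44 were lost when at least 1 of the 4 batch-culture arrays was left out. Among the named genes that were not called, the sign turned in 3 cases. ADH2 ranged from -0.05238 to 1.08 and GSY2 from -0.3247 to 0.01049 over the fits without 1 array, and PDC1 from -0.3317 to 0.05058. Sign changes of other genes were not counted. The cause was not tested in any of these cases.

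Each group held 2 arrays, which the labels do not describe as separate cultures. No oxygen reading, cell count or detection call was used.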
